A study of Homo sapiens with 24 samples.

Results

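SW620 and HCC-70 cells were exposed to the same dilution of Ocoxin, and the present comparison asks in which genes the 2 cell lines responded differently. SW620 is a human colorectal adenocarcinoma (COAD) cell line and HCC-70 a human triple-negative breast cancer (TNBC) cell line, that is, one from a tumor class defined by lack of estrogen receptor, progesterone receptor and HER2 amplification. Ocoxin is a nutritional supplement that mixes plant extracts, amino acids, vitamins and minerals. The study sequenced mRNA of 24 samples from 4 cell lines, and the comparison uses the 12 samples in which both the dilution (1:700) and the exposure (48 h) were the same: 3 SW620 controls, 3 SW620 treated with Ocoxin, 3 HCC-70 controls and 3 HCC-70 treated with Ocoxin. Ocoxin was given in RPMI-1640 medium with 1% serum, and RNA came from the cells that were still attached. Controls and treated samples were told apart by the letter in the sample titles, because the treatment label of the controls also names the dilution. The study calls the control samples untreated. The BxPC-3 and LNCaP samples received other dilutions and were not used in the comparison. Each cancer type was represented by 1 cell line, so that tissue of origin and cell line cannot be told apart. Nothing says that the 3 samples of a group came from separate cultures, and p-values then measure only the spread between these samples, which may be technical. Members were the genes for which the log2 fold change (Ocoxin against control) in SW620 minus that in HCC-70 differed from 0 at an adjusted p under 0.05, and they numbered 2110 of the 20163 genes that could be tested. At that threshold, REPIN1 was just inside (adjusted p = 0.0499) and EIF4A1 just outside (0.0501).

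Several pathways named below work as switches that are read through their target genes. NF-kB is a transcription factor held in the cytoplasm by inhibitor proteins, and on release it induces chemokines together with its own inhibitors. HIF-1, the hypoxia-inducible factor, raises glycolytic enzymes and survival genes when oxygen is scarce. Zinc ions activate MTF1, which induces metallothioneins, small cysteine-rich proteins that bind the metal. Cells that divide express replication genes in S phase and mitotic genes in G2 and M phase.

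The 12 libraries held between 25160757 and 39009959 counts. The Ocoxin-treated SW620 libraries were the shallowest (25160757 to 29670036 counts) and the HCC-70 libraries the deepest (36863490 to 39009959). Colon markers had a summed level of 878 to 921 CPM (counts scaled to a common library total) in SW620 and 168 to 218 in HCC-70, where VIL1 stayed under 1 CPM and most of the sum was EPCAM, an adhesion protein of epithelia in general. Basal breast markers had a summed level of 3607 to 4315 CPM in HCC-70 and 35.0 to 51.0 in SW620. Of the 3 receptors named above, that for progesterone (PGR) had 0 counts in every library, that for estrogen (ESR1) was at 5.86 to 8.61 CPM in HCC-70 and 0 to 0.189 in SW620, and HER2 (ERBB2) was at 257 to 301 in HCC-70 and 115 to 141 in SW620, so that the last 2 were higher in the TNBC line than in SW620. In SW620 the summed basal markers were at 35.0 to 36.5 CPM in controls and 47.0 to 51.0 after Ocoxin. The gene for caspase 14, a protease of cornifying keratinocytes, was at 232, 211 and 295 CPM in the 3 HCC-70 controls and had 0 counts in all 6 SW620 libraries. EGFR, at 498 to 573 CPM in the HCC-70 controls, was at 0.0747 to 0.252 in the SW620 libraries. The leukocyte markers summed to 9.23 to 9.71 CPM in SW620 controls and 14.1 to 14.9 after Ocoxin, nearly all of it LYZ (lysozyme). In HCC-70 they summed to 139 to 146 CPM in controls and 112 to 127 after Ocoxin, nearly all of it CD14, a coreceptor for lipopolysaccharide, while the pan-leukocyte marker PTPRC reached at most 0.110 CPM in any library. The part of these marker shifts in the results was not tested. These are bulk samples, in which fewer cells of a kind and less RNA per cell cannot be told apart. In each group replicate 3 lay farther from replicates 1 and 2 than those lay from each other, but in treated SW620 only slightly so on 1 side (a chi-square per degree of freedom of 4.55 between replicates 1 and 2 and 5.29 between 2 and 3). Same-numbered control and treated libraries of a cell line deviated together, as did some of different number, and counts from a fit with the replicate number as a block are given where they moved by over 1.5 times and by more than 1 gene.

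HCC-70 responded with more genes than SW620, and among the genes that moved in both cell lines opposite directions were more frequent than shared ones, although not among large changes. In SW620, 488 genes passed the test (2.42% of those tested), of which 292 rose (1.45%) and 196 fell (0.972%). In HCC-70, 3137 passed (15.6%), of which 1264 rose (6.27%) and 1873 fell (9.29%). The difference itself passed for 2110 genes (10.5%): the response was higher in SW620 for 1267 (6.28%) and lower for 843 (4.18%). In both cell lines 171 genes were called. They were 35.0% of the SW620 calls, against the 15.6% of all genes tested that HCC-70 called. They were also 5.45% of the HCC-70 calls, against the 2.42% of all genes tested that SW620 called. Of these, 50 rose in both, 11 fell in both, 74 rose in SW620 and fell in HCC-70, and 36 fell in SW620 and rose in HCC-70. Among all SW620 calls 59.8% rose, and among all HCC-70 calls 40.3% did. With such shares, opposite signs would slightly outnumber shared ones even among unrelated calls. Leaving out SW620 control 1 left 37 genes of opposite and 32 of shared sign. All 110 genes of opposite sign also passed the test of the difference, as did 15 of the 61 of shared sign. The difference comes from the same fit and responses of opposite sign add up in it, so that the passes of the 110 are no separate support. Of the calls with an estimated change of at least 1.5-fold, a cut made after the test, 8 genes had opposite and 10 shared signs. At 2-fold, 2 had opposite and 4 shared signs. Most members (1398) were called in HCC-70 alone, 185 were called in SW620 alone, and 402 in neither, so that for these only the difference passed. Over the 12659 genes with at least 1 CPM in each cell line, the responses of the 2 lines had a Pearson correlation across genes of -0.080 (-0.048 with the length and GC trend removed), genes not being independent replicates.

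With the replicate block, 4111 genes passed in the difference (20.4%), of which 2255 were higher (11.2%) and 1856 lower (9.2%). In SW620 the block gave 1732 calls (8.59%; 4.27% up and 4.32% down) and in HCC-70 5279 (26.2%; 11.7% up and 14.5% down), with 548 genes of opposite and 257 of shared sign. The counts also rested on single libraries. For SW620, leaving out treated replicate 2 left 173 calls, treated replicate 3 298, control 1 175 and control 2 176, and for HCC-70 leaving out control 2 left 1808. The difference passed for 1326 genes when the second treated SW620 library was left out, for 1218 and 1301 when SW620 control 1 or 2 was, and for 1336 when HCC-70 control 2 was. Genes of opposite sign numbered 37 with either SW620 control 1 or control 2 removed, 43 and 63 with treated SW620 library 2 or 3 removed, 64 with HCC-70 control 2 removed, and 199 with SW620 control 3 removed. Genes of shared sign numbered 39 and 28 with treated SW620 library 1 or 2 removed, and 32 and 26 with SW620 control 1 or 2 removed. With replicates 1 and 2 alone in every group, an alternative chosen after the data had been seen, 3214 genes passed in the difference and 368 had opposite signs.

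**Figure D1:**
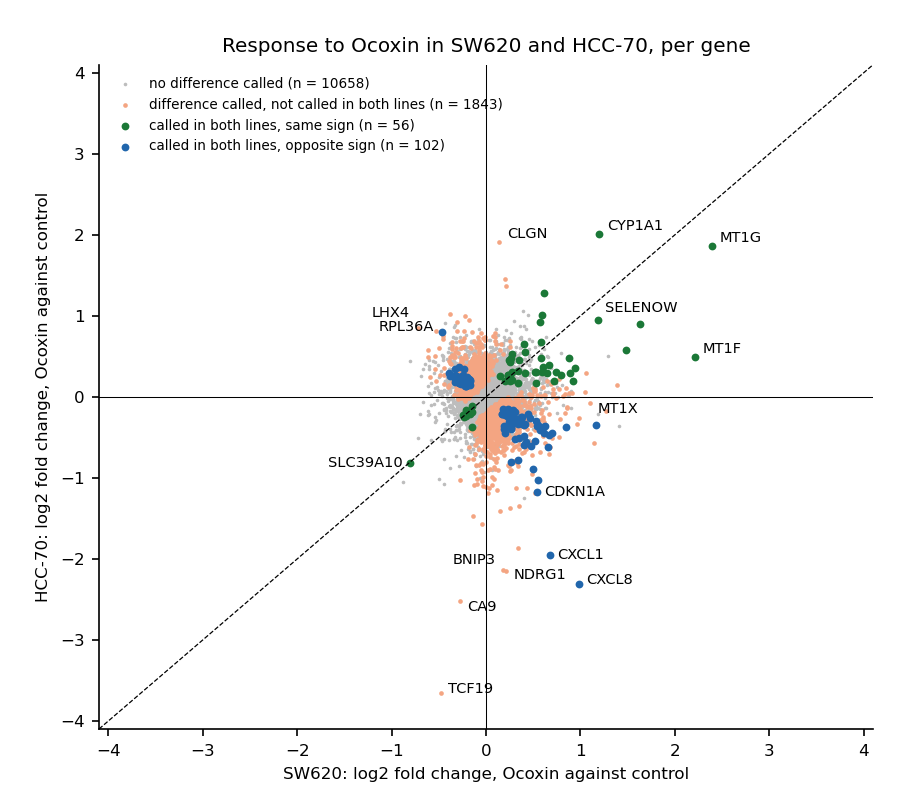
Log2 fold change of Ocoxin against control in SW620 (horizontal axis) and HCC-70 (vertical axis) for the 12659 genes with a mean of at least 1 CPM in each cell line, 1 point per gene, with the dashed line marking equal responses. Of the genes called in both lines, 102 of opposite sign (blue) lie in the upper left and lower right corners and 56 of shared sign (green) lie along the line, while CXCL8, CXCL1, NDRG1, CA9 and TCF19 lie far below it.

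Targets of NF-kB diverged between the lines, and CXCL8 had the largest difference among the members with at least 1 CPM in each line. CXCL8 (interleukin 8) and CXCL1, chemokines that attract neutrophils, rose in SW620 and fell in HCC-70. CXCL8 (ENSG00000169429, chr4:73740506-73743716, hg38) was at 12.2, 13.6 and 12.6 CPM in the SW620 controls and at 22.8, 24.8 and 28.1 after Ocoxin. In HCC-70 it was at 8.15, 8.55 and 5.87 CPM in the controls and at 1.70, 1.5003 and 1.35 after Ocoxin. The groups did not overlap in either cell line, and every treated SW620 library lay above every control of both lines. Most named genes were chosen on these same values, so that separate groups, here and below, describe them and are no further support. The log2 fold change was 0.98 ± 0.12 (SE, n = 3 against 3) in SW620 and -2.31 ± 0.16 in HCC-70, a difference of 3.29 ± 0.20 (adjusted p = 6.4e-10, edgeR quasi-likelihood test). CXCL1 (chr4:73869393-73871242) went from 23.1, 25.5 and 26.3 to 37.2, 38.9 and 43.8 CPM in SW620 and from 6.4998, 5.95 and 4.45 to 1.42, 1.59 and 1.38 in HCC-70. Again no control overlapped a treated library of its own line, and the difference was 2.63 ± 0.18 on the log2 scale (adjusted p = 3.4e-09).

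The promoters of the 2 chemokines are shown because both carry matches to the kB site, to which NF-kB binds. The 250 bases before the start were taken from RefSeq (GRCh38.p14), at chr4:73740319-73740568 and chr4:73869143-73869392, both on the plus strand, and capitals mark matches to GGNNNTTCC on either strand.
CXCL8: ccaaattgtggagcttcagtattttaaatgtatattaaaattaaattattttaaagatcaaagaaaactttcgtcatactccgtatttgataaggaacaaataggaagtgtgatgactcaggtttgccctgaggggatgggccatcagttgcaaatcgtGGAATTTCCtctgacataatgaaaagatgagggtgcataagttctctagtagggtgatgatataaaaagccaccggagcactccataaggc
CXCL1: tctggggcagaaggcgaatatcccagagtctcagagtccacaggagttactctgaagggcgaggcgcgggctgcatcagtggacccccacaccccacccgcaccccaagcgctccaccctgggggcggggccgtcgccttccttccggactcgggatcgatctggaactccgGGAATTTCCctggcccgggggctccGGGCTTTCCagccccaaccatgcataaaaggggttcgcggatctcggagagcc
CXCL8 had 1 match, which began 91 bases before the start, and CXCL1 had 2, the nearer beginning 53 bases before it. Such a match was present in 17.1% of all 35116 promoter windows, in 14 of the 19 NF-kB targets with a window, in 21 of 62 genes that rose in SW620 and fell in HCC-70 (33.9%), in 3 of 27 that moved the other way (11.1%) and in 19.5% of the tested genes with a window. A match in the letters is a description and not a measured binding site.

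Of the 17 NF-kB targets that could be tested, 8 rose and 0 fell in SW620, 0 rose and 8 fell in HCC-70, and 11 had a higher and 0 a lower response in SW620. Their median log2 fold change was 0.41 in SW620 and -0.43 in HCC-70, against 0 and 0 over all genes tested, and their median difference was 0.76 against 0.0098. Values above 0 numbered 15 in SW620, 3 in HCC-70 and 16 in the difference. All members given values here passed in the difference, and those that did not pass are not shown. TNFAIP3 (A20), an enzyme that shuts NF-kB signaling down, was at 12.7, 12.7 and 12.2 CPM in SW620 controls and 17.99, 17.3 and 14.3 after Ocoxin. In HCC-70 it was at 7.57, 7.09 and 6.87 CPM in controls and 5.02, 4.93 and 4.35 after Ocoxin. The groups did not overlap in either line, and the difference was 1.00 ± 0.15 (adjusted p = 0.000222), although the rise in SW620 was lost in 5 of the 12 fits that left out 1 library. BIRC3 (cIAP2), a ubiquitin ligase that guards cells against death by TNF, rose by 0.57 in SW620 and fell by 0.41 in HCC-70 (difference 0.98 ± 0.14, adjusted p = 0.000309). ICAM1, an adhesion protein for leukocytes, fell in HCC-70 (-0.84 ± 0.097) and had 0.23 ± 0.10 in SW620, where it did not pass the test. CCL20, a chemokine for lymphocytes and dendritic cells, rose from 20.7, 22.7 and 23.8 to 41.5, 44.8 and 50.5 CPM in SW620, whereas every HCC-70 library was at or below 0.275 CPM. IL6, IL1A, IL1B and TNF were below the count filter and were not tested. The counts for this list were 10 or 11 in every fit without 1 library, and 11 with the replicate block and with the trend against gene length removed.

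**Figure D2:**
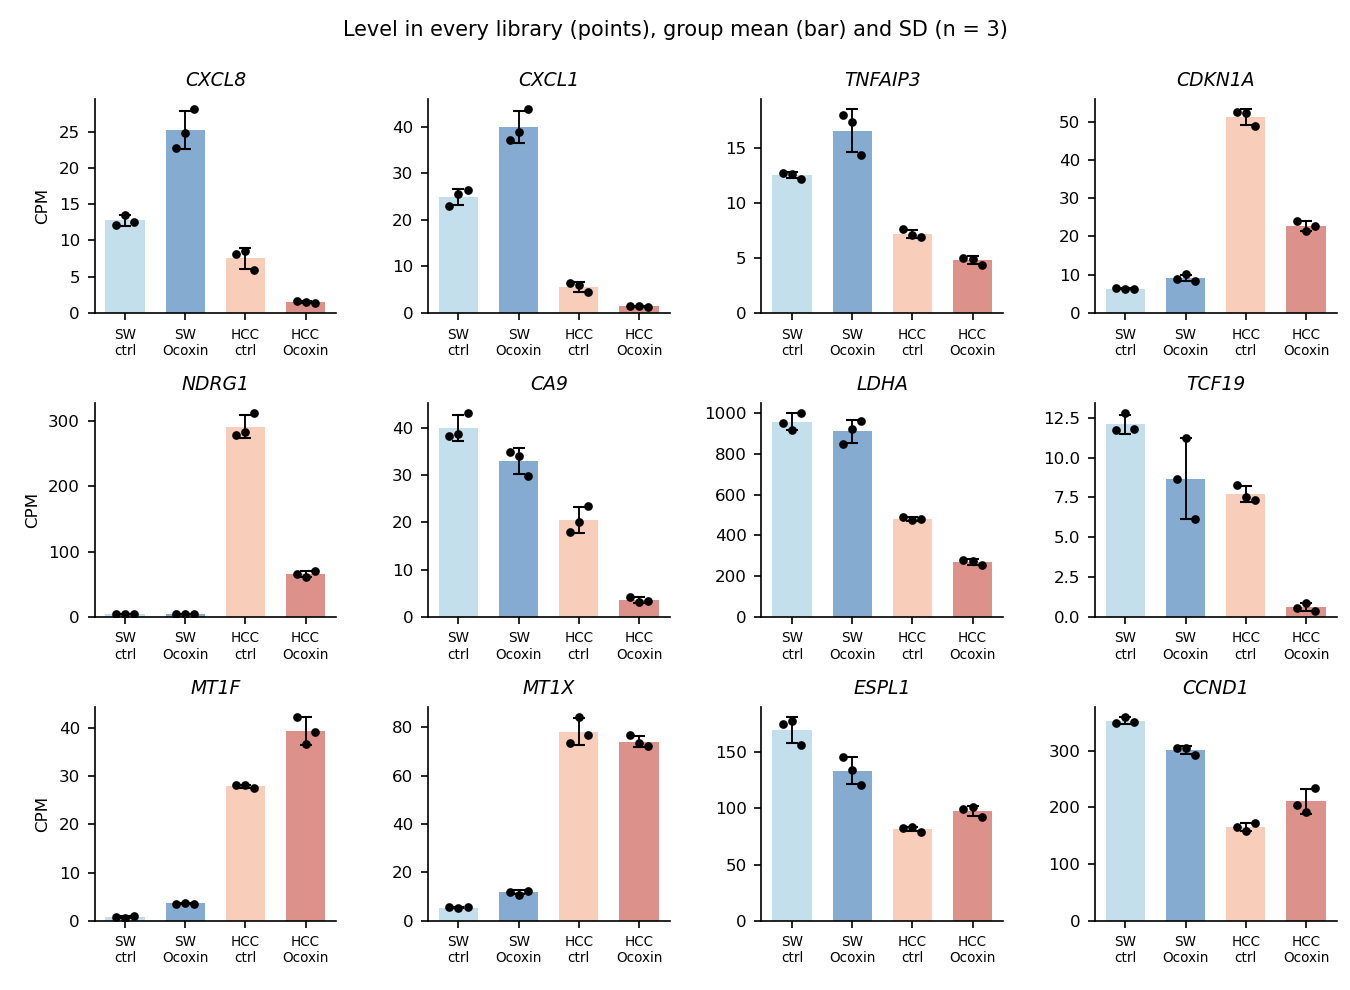
Level of 12 genes in CPM (vertical axes, linear, from 0) in each library (points), with the group mean (bars) and SD (n = 3) for SW620 (blue) and HCC-70 (red), controls pale and Ocoxin dark. CXCL8, CXCL1, TNFAIP3 and CDKN1A rise in SW620 and fall in HCC-70, NDRG1, CA9, LDHA and TCF19 fall in HCC-70, MT1F rises in both lines, more in SW620 on the log2 scale, MT1X rises in SW620, and ESPL1 and CCND1 fall in SW620 and rise in HCC-70.

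CDKN1A (p21), an inhibitor of the kinases that drive the cell cycle, had the next largest difference after the 2 chemokines among genes of opposite sign with at least 1 CPM in each line. It was at 6.46, 6.16 and 6.26 CPM in SW620 controls and at 8.88, 10.1 and 8.44 after Ocoxin, whereas in HCC-70 it was at 52.5, 52.1 and 48.7 in controls and 24.1, 21.5 and 22.6 after Ocoxin. All 3 treated SW620 libraries lay above all SW620 controls and all 3 treated HCC-70 libraries below all HCC-70 controls. The responses of 0.54 ± 0.093 and -1.17 ± 0.074 differed by 1.71 ± 0.12 (adjusted p = 3.4e-09). SDCBP2, a syntenin family adaptor, went from 4.02, 3.14 and 3.74 to 5.23, 5.83 and 4.93 CPM in SW620 and from 14.4, 14.7 and 14.4 to 6.78, 7.59 and 6.93 in HCC-70 (difference 1.58 ± 0.17, adjusted p = 4.05e-06), its rise in SW620 being lost in 2 of 12 fits without 1 library. Its locus holds an antisense gene, and since reads were counted without regard to strand the 2 cannot be separated.

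CTSS, IGFBP3 and LCN2, also of opposite sign, were far more abundant in HCC-70. CTSS, a lysosomal protease of antigen presentation, was at 0.792, 1.16 and 1.05 CPM in SW620 controls, 2.02, 2.51 and 2.28 after Ocoxin, 159, 164 and 174 in HCC-70 controls and 129.8, 131 and 129.9 after Ocoxin. IGFBP3, which binds insulin-like growth factors, rose by 0.84 from 1.74 ± 0.0301 CPM (SD, n = 3) in SW620 and fell by 0.37 from 2024 ± 117 CPM in HCC-70. LCN2, a secreted iron carrier, rose by 1.58 from 0.428 ± 0.0858 CPM in SW620 and fell by 0.27 from 223 ± 8.04 in HCC-70. None of the 3 had overlapping groups within a line, which is no further support, since they were named for passing in both lines. The SW620 levels of such genes are small beside those of HCC-70. Of the 3060 genes at 100 CPM or more in HCC-70, 29 to 36 had 0 counts in each SW620 library. The difference was 1.51 ± 0.16 for CTSS, 1.21 ± 0.15 for IGFBP3 and 1.85 ± 0.31 for LCN2 (adjusted p = 2.92e-06, 2.98e-05 and 0.0012). The fall of LCN2 in HCC-70 was lost with the length and GC trend removed (adjusted p = 0.0706) and in 4 of 12 fits without 1 library, and its rise in SW620 in 2 of them.

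**Figure D3:**
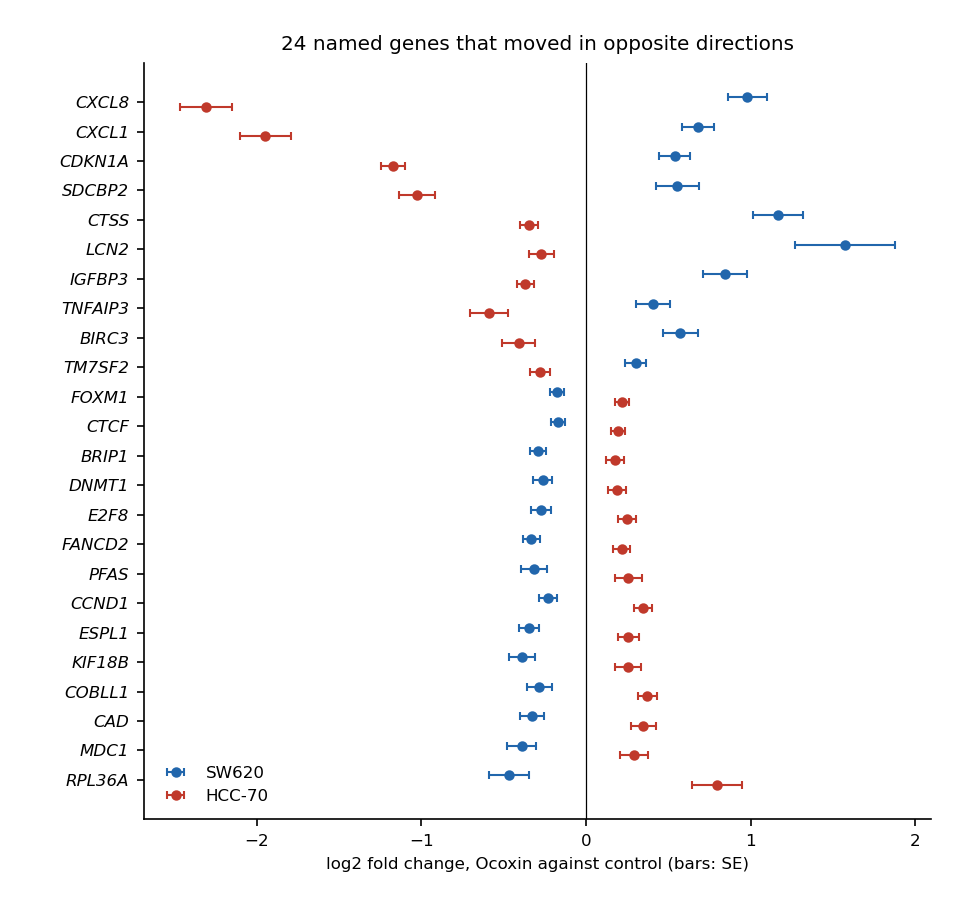
Log2 fold change of Ocoxin against control (horizontal axis, points, with SE bars, n = 3 against 3) in SW620 (blue) and HCC-70 (red) for 24 named genes that passed the test in both cell lines with opposite sign. The upper 10 genes rise in SW620 and fall in HCC-70 with responses of up to 1.58 and -2.31, whereas the lower 14, which fall in SW620 and rise in HCC-70, move by less than 1 in either direction.

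Genes that fell in SW620 and rose in HCC-70 were 36 in number. ESPL1 encodes separase, the protease that lets sister chromatids part. It was at 175, 178 and 157 CPM in SW620 controls and 146, 134 and 121 after Ocoxin, and at 82.7, 83.2 and 79.3 and 99.6, 101 and 92.6 in HCC-70. The groups did not overlap in either line, and the responses of -0.34 ± 0.061 and 0.26 ± 0.062 differed by -0.60 ± 0.087 (adjusted p = 0.00012). CAD, the enzyme that begins pyrimidine synthesis, went from 336, 345 and 297 to 293, 260.4 and 225 CPM in SW620 and from 124, 119 and 123 to 157, 152 and 156 in HCC-70 (difference -0.68 ± 0.11, adjusted p = 0.000978). PFAS, of purine synthesis, had -0.32 and 0.26. The mitotic kinesin KIF18B had -0.39 in SW620 and 0.25 in HCC-70, and MDC1, a scaffold at DNA breaks, had -0.39 in SW620 and 0.29 in HCC-70. CCND1 (cyclin D1), which starts the cell cycle in G1, fell from 349, 359.8 and 350.1 to 305, 304 and 293 CPM in SW620 and rose from 166, 158 and 172 to 205, 193 and 234 in HCC-70, a difference of -0.58 ± 0.077 (adjusted p = 4.92e-05).

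Further genes that fell in SW620 and rose in HCC-70 were FANCD2 of crosslink repair (-0.33 in SW620 and 0.22 in HCC-70), DNMT1, which copies DNA methylation (-0.26 in SW620 and 0.19 in HCC-70), E2F8, a repressor of the E2F family (-0.27 in SW620 and 0.25 in HCC-70), BRIP1, a helicase (-0.29 in SW620 and 0.17 in HCC-70), and FOXM1, the transcription factor of mitotic genes (-0.18 in SW620 and 0.22 in HCC-70). Each passed the test in both lines and in the difference, but the fall in SW620 was lost in several fits without 1 library (8 of 12 for FOXM1, 5 for PFAS, 4 each for E2F8, DNMT1 and CCND1, 3 each for CAD and MDC1, 1 for KIF18B and 0 for ESPL1, FANCD2 and BRIP1). The rise in HCC-70 was lost in 8 such fits for PFAS, 7 for BRIP1, 4 for KIF18B, 3 each for MDC1 and DNMT1 and 1 for FANCD2. That of BRIP1 was also lost with the length and GC trend removed. RPL36A, a ribosomal protein, had the largest difference among them (-1.27 ± 0.19), yet it shares its exons with the read-through gene RPL36A-HNRNPH2 and its count depends on how shared reads were assigned. Its fall in SW620 was lost in 4 of 12 fits without 1 library. COBLL1, an actin regulator, went from 13.7, 15.1 and 12.8 to 11.1, 12.6 and 10.5 CPM in SW620, which was lost with the length and GC trend removed and in 9 of 12 fits without 1 library, and from 94.3, 93.8 and 91.5 to 122, 117 and 122 in HCC-70.

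Over the whole list of G2/M genes, 0 of 54 rose and 23 fell in SW620, and 2 rose and 4 fell in HCC-70. The response was higher in SW620 for 2 and lower for 17. Over all genes tested, 1.45% rose and 0.972% fell in SW620, and 6.27% rose and 9.29% fell in HCC-70. A higher response was called for 6.28% and a lower one for 4.18%. The HCC-70 counts and the 2 higher responses of the G2/M list lie below those shares. The median of the list was -0.17 in SW620 and -0.0065 in HCC-70. S phase genes were alike in SW620 (0 of 43 rose and 10 fell, median -0.13), whereas in HCC-70 6 rose and 3 fell (median -0.024), and the difference passed for 11, all of them lower in SW620. TOP2A, the topoisomerase that untangles chromosomes, was at 829, 822 and 811 CPM in SW620 controls and 676, 667 and 687 after Ocoxin, a fall of 0.28 ± 0.036. In HCC-70 it was at 428, 409 and 422 and 451, 463 and 440.1, where 0.10 ± 0.036 missed the threshold (adjusted p = 0.0547, and 0.00948 with the replicate block). CKAP2L, a spindle protein, fell in SW620 (-0.32 ± 0.060) and had 0.088 ± 0.056 in HCC-70, with a difference of -0.41 ± 0.082 (adjusted p = 0.00258). GMNN (geminin), which prevents a second round of replication, rose in HCC-70 (0.34 ± 0.056) and had -0.12 ± 0.058 in SW620. With the replicate block, 36 G2/M genes fell in SW620, 8 rose and 10 fell in HCC-70, and the lower responses numbered 30. Of the S phase genes, 21 fell in SW620 and 8 in HCC-70 with the block, and 17 had a lower and 1 a higher response. The 2 higher G2/M responses numbered 0 with the length and GC trend removed, and 0 or 1 in 8 of the 12 fits without 1 library. The S phase count was 6 with treated SW620 library 2 left out, and 7 with SW620 control 2, treated HCC-70 library 1 or HCC-70 control 2 left out.

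TOP2A and CKAP2L had the largest differences among the G2/M genes, and their promoters are shown for the cell cycle homology region, the TTTGAA element found before many mitotic genes. The windows lie on the minus strand at chr17:40417897-40418146 and chr2:112764610-112764859, and capitals mark TTTGAA on either strand.
TOP2A: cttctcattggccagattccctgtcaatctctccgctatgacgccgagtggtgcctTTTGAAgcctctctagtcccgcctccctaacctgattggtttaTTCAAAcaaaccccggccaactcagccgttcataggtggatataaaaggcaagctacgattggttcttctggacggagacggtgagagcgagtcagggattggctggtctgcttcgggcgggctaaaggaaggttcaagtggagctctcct
CKAP2L: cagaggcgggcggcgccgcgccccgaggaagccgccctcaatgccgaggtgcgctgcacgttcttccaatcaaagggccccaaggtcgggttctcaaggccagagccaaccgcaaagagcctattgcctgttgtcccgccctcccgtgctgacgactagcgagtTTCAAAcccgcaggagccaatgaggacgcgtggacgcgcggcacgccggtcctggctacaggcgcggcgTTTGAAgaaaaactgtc
Each had 2 matches, the nearer beginning 151 bases before the start in TOP2A and 17 bases before it in CKAP2L. The element was found in 13.3% of all promoter windows, in 8.69% of the tested genes with a window and in 24 of the 45 G2/M genes with a window. It was also found in 7 of 27 genes that fell in SW620 and rose in HCC-70 (25.9%) and in 8.06% of those that moved the other way.

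Most hypoxia and glycolysis genes fell in HCC-70, and few did in SW620. Of 35 genes, 0 rose and 28 fell in HCC-70 with a median of -0.47, and 0 rose and 3 fell in SW620 with a median of -0.024. The difference passed for 24, all with the higher value in SW620, and it did so for 22 to 24 in every fit without 1 library. SLC2A3 and ANGPTL4 are among the 24, each near 0 counts in 1 line. NDRG1, a stress protein induced by hypoxia, was at 278, 283 and 312 CPM in HCC-70 controls and 65.2, 61.0 and 70.2 after Ocoxin. In SW620 it was at 3.72, 3.69 and 3.98 and 4.13, 4.78 and 4.26 CPM, so that the HCC-70 groups were wide apart while those of SW620 differed by 0.21 ± 0.11 and did not pass (adjusted p = 0.382). CA9 (carbonic anhydrase 9), a surface enzyme that HIF-1 induces, went from 18.01, 20.2 and 23.5 to 4.23, 3.20 and 3.33 CPM in HCC-70 and from 38.3, 38.6 and 43.1 to 34.8, 34.1 and 29.8 in SW620. Neither line had overlapping groups, and the responses of -2.52 ± 0.12 and -0.28 ± 0.093 differed by 2.24 ± 0.15 (adjusted p = 3.4e-09). The SW620 value of CA9 did not pass (adjusted p = 0.129, against 0.046 in the blocked fit and 0.0277 with the length and GC trend removed). EGLN3, an oxygen-dependent hydroxylase of HIF, had -0.14 in SW620 and -1.48 in HCC-70, and BNIP3, a mitophagy receptor, had 0.18 in SW620 and -2.14 in HCC-70. The enzymes changed less than these: LDHA (lactate dehydrogenase) went from 491, 474 and 480.0 to 280.5, 273 and 255 CPM in HCC-70 and from 953, 919 and 1002 to 851, 922 and 963 in SW620, and PGK1 had 0.0077 in SW620 and -0.61 in HCC-70. Both differences passed (0.77 ± 0.066 and 0.62 ± 0.063, adjusted p = 1.37e-07 and 1.84e-06). VEGFA, BHLHE40 and MXI1 did not pass in either line.

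The promoter of CA9 is shown because a match to the hypoxia response element, to which HIF binds, lies close to the start (chr9:35673678-35673927, plus strand), with capitals marking ACGTG on either strand.
CA9: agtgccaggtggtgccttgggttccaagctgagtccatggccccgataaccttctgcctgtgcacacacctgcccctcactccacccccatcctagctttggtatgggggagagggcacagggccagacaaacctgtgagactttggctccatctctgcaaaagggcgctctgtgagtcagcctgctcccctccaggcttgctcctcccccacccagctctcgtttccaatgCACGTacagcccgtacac
The only match began 18 bases before the start. It is short, and 18.5% of all windows held one, as did 22.5% of the tested genes with a window. Of the 31 hypoxia and glycolysis genes with a window, 18 held one. Genes with a higher and a lower response in SW620 had shares of 21.7% and 25.2%, close to that of the tested genes.

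TCF19, a chromatin-associated cell cycle gene, had the second largest difference among genes of at least 1 CPM in both lines. In HCC-70 it was at 8.26, 7.54 and 7.33 CPM in controls and 0.568, 0.878 and 0.385 after Ocoxin, and in SW620 at 11.7, 12.8 and 11.8 and 8.66, 11.2 and 6.13. The treated libraries lay below the controls in both lines, far below them in HCC-70, and those of SW620 were scattered. The difference was 3.18 ± 0.30 (adjusted p = 1.72e-06), the SW620 response itself being -0.48 ± 0.17 (adjusted p = 0.155, and 0.00958 with the replicate block). It overlaps POU5F1, and counting without strand cannot separate their reads. On the other side, CLGN (calmegin), a chaperone of the endoplasmic reticulum, went from 4.90, 5.14 and 4.22 to 15.3, 15.3 and 22.97 CPM in HCC-70 and from 3.66, 3.49 and 2.52 to 3.12, 3.04 and 4.56 in SW620 (difference -1.77 ± 0.27, adjusted p = 0.00041). LHX4, a homeobox factor, had -0.72 in SW620 and 0.85 in HCC-70, where the SW620 value did not pass (adjusted p = 0.071, against 0.00497 with the replicate block, 0.0347 with DESeq2 and 0.0498 with the length and GC trend removed) and the rise in HCC-70 was lost in 2 of 12 fits without 1 library. The pseudogene GOLGA6L5P and the unnamed gene ENSG00000272849 completed the 5 largest, both near 1 CPM, and the first was lost in 8 of 12 fits without 1 library.

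Most metallothioneins rose in both lines, and 4 of them had the higher response in SW620. Of the 7 metallothioneins and 2 zinc transporters that could be tested, 7 rose and 1 fell in SW620, 6 rose and 1 fell in HCC-70, and 4 had a higher response in SW620. MT1F was at 0.670, 0.660 and 0.994 CPM in SW620 controls and 3.53, 3.77 and 3.51 after Ocoxin, and at 28.1, 28.2 and 27.5 and 42.3, 36.6 and 39.1 in HCC-70. The groups did not overlap, and Ocoxin-treated SW620 still lay below every HCC-70 control. The responses of 2.21 ± 0.16 and 0.50 ± 0.080 differed by 1.72 ± 0.18 (adjusted p = 3.35e-06). MT1X went from 5.51, 5.34 and 5.53 to 11.97, 10.8 and 12.4 CPM in SW620, whereas in HCC-70 it was at 73.5, 84.4 and 76.7 in controls and 76.7, 73.4 and 72.3 after Ocoxin, where the groups overlapped (-0.077 ± 0.061, adjusted p = 0.447). Its difference was 1.18 ± 0.11 (adjusted p = 2.35e-07). MT1E (1.63 in SW620 and 0.89 in HCC-70) and MT2A (0.80 in SW620 and 0.26 in HCC-70) rose in both and also passed in the difference (0.73 ± 0.12 and 0.53 ± 0.070).

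Not every zinc gene passed in the difference. MT1G rose by 2.40 ± 0.19 in SW620 and 1.86 ± 0.14 in HCC-70, and its difference of 0.54 ± 0.24 did not pass (adjusted p = 0.177). The zinc exporter SLC30A1 rose in both (0.41 in SW620 and 0.55 in HCC-70), and the zinc importer SLC39A10 fell in both (-0.80 in SW620 and -0.81 in HCC-70). For SLC39A10 the difference was 0.012 ± 0.093 and did not pass, which does not show that the 2 responses were equal. Its sign changed between alternative settings. Reads of metallothionein genes can be shared between near-identical copies, which limits the assignment to a single gene.

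The promoter of MT1X is shown for the metal response elements to which MTF1 binds (chr16:56682220-56682469, plus strand). Capitals mark the core TGCACNC or TGCGCNC on either strand.
MT1X: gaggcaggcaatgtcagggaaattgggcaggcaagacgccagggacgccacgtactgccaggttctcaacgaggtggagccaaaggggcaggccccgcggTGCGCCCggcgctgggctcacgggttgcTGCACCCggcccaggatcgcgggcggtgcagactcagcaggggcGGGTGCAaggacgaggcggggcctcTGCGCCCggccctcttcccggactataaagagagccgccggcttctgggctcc
It held 4 matches, the nearest beginning 53 bases before the start. At least 1 was held by 24.8% of all windows and by 32.3% of the tested genes with a window. In the list, 4 of the 5 genes with a window held one.

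Some genes moved the same way in both lines. SELENOW, a small selenoprotein, went from 58.2, 58.1 and 61.9 to 127, 141 and 137 CPM in SW620 and from 83.3, 89.9 and 88.4 to 167, 171 and 168 in HCC-70. Both rises were far outside the spread (1.18 ± 0.051 and 0.95 ± 0.049), and the difference of 0.23 ± 0.070 passed narrowly (adjusted p = 0.0352, lost in 9 of 12 fits without 1 library). CYP1A1, the main target of the aryl hydrocarbon receptor, went from 3.35, 2.34 and 3.28 to 7.84, 6.56 and 5.98 CPM in SW620 and from 81.7, 74.5 and 77.3 to 321, 267 and 353 in HCC-70. It thus rose in both, and further in HCC-70 (-0.81 ± 0.22, adjusted p = 0.0324, lost in 7 of 12 such fits). NCAPG, a condensin subunit, and KREMEN1, a regulator of Wnt signaling, fell in both (-0.24 in SW620 and -0.22 in HCC-70, and -0.23 in SW620 and -0.25 in HCC-70), with differences of -0.023 ± 0.076 and 0.019 ± 0.089.

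Among 29 targets of NRF2, the transcription factor of the oxidant response, 6 rose and 0 fell in SW620, 14 rose and 2 fell in HCC-70, and the difference passed for 5, of which 4 were lower in SW620. Shares over all genes tested were 1.45% up and 0.972% down in SW620, and 6.27% up and 9.29% down in HCC-70. For the difference they were 6.28% higher and 4.18% lower. The 2 falls in HCC-70 and the 1 higher response of the NRF2 list lie below these shares, as does the 1 fall in HCC-70 of the next list. SLC7A11, which imports cystine, rose in HCC-70 (0.69 ± 0.079) and had 0.26 ± 0.091 in SW620 (adjusted p = 0.167, but 0.0461 in the blocked fit), with a difference of -0.43 ± 0.12 (adjusted p = 0.0234, lost in 4 of 12 fits without 1 library). The integrated stress response, which ATF4 directs when translation is curbed, had 8 of 39 genes up and 1 down in SW620, 18 up and 1 down in HCC-70, and differences on both sides (7 higher and 10 lower in SW620). DDIT4, an mTOR inhibitor, went from 3.90, 4.40 and 3.45 to 7.06, 7.58 and 6.69 CPM in SW620 and from 45.6, 52.0 and 48.2 to 44.4, 43.9 and 45.5 in HCC-70 (difference 0.98 ± 0.13, adjusted p = 3.61e-05). It passed in SW620 alone of the 2 lines, and in HCC-70 the highest treated library nearly reached the lowest control. ADM2, a peptide hormone, and SESN2 (sestrin 2), a leucine sensor, rose in both and further in SW620 (0.89 in SW620 and 0.29 in HCC-70, and 0.88 in SW620 and 0.48 in HCC-70), but the difference of SESN2 was lost with the length and GC trend removed (adjusted p = 0.103) and in 7 of 12 fits without 1 library. Of this list, 3 members were higher when treated SW620 library 2, SW620 control 1, treated HCC-70 library 2 or HCC-70 control 2 was left out, and 4 when SW620 control 2 was. Leaving out treated SW620 library 2, SW620 control 1 or SW620 control 2 made 6 lower. With the length and GC trend removed 4 were higher, and with the replicate block 4 fell in SW620 and 2 in HCC-70. The 4 lower NRF2 targets became 9 with the block, in which 3 were higher and 10 rose in SW620, 8 with the trend removed, where none was higher, and 2 with any of these 3, treated HCC-70 library 1 or HCC-70 control 2 left out.

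Of the 13 genes that the study listed as shared by its 4 cell lines, 9 rose and 4 fell in SW620. In HCC-70 8 rose and 1 fell, against 9 and 2 with DESeq2, which the study used. The list was chosen on these samples, so the direction within a line is not independent evidence. The difference passed for 6: it was above 0 for ADM2, CHAC1, MT1F and SESN2 and below 0 for ESPL1 and RAD54L. ESPL1 was thus the only one of the 13 that passed here in both lines with opposite sign. RAD54L, of recombination repair, fell in SW620 (-0.32 ± 0.065) and had 0.19 ± 0.064 in HCC-70. Its adjusted p in HCC-70 was 0.051, against 0.014 with the replicate block and 0.0351 with DESeq2. For both ESPL1 and RAD54L, the RT-qPCR of the study was lower after Ocoxin in COAD and higher in TNBC. HMOX1 rose in both, and its difference of 0.44 ± 0.16 had an adjusted p of 0.0855 (0.0398 with the block), while for KIF20A -0.16 ± 0.069 had 0.145 (0.0335 with the block). For TRIB3, TXNRD1, SLC30A1, SLC39A10 and NQO1 the difference did not pass with or without the block. The number above 0 was 2 when treated SW620 library 2 or 3, treated HCC-70 library 2 or HCC-70 control 2 was left out, since CHAC1 and SESN2 were each lost in several of these fits. It was also 2 with the length and GC trend removed, which ended the calls of CHAC1 (adjusted p = 0.129) and SESN2 (0.103).

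**Figure D4:**
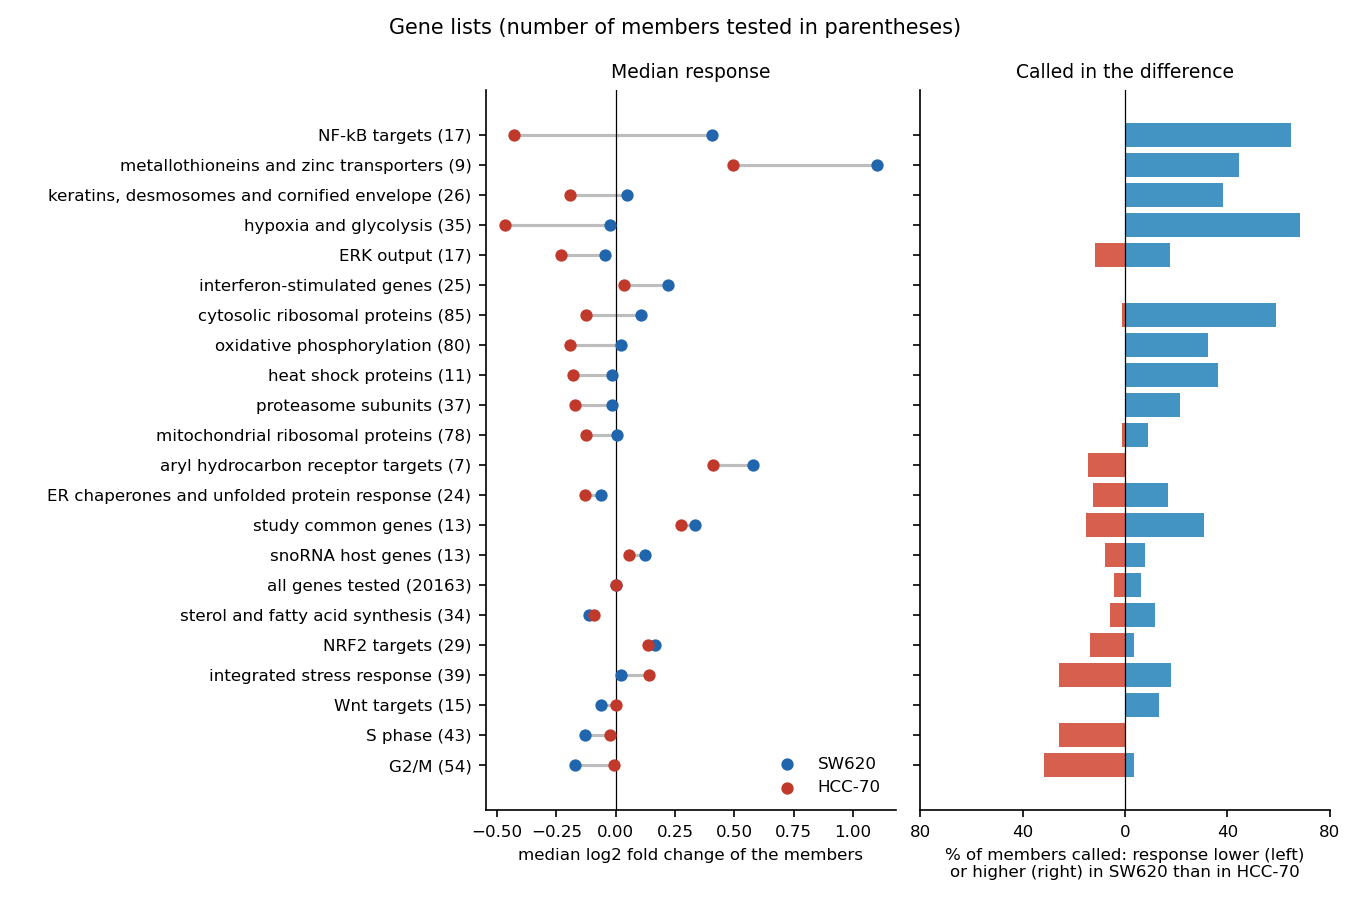
Left, median log2 fold change of Ocoxin against control over the tested members of each gene list in SW620 (blue) and HCC-70 (red), with the number of members in parentheses. Right, percent of members for which the difference passed, lower (red, to the left) or higher (blue, to the right) in SW620, the line of all genes tested being 4.18% and 6.28%. NF-kB targets (11 of 17), hypoxia and glycolysis genes (24 of 35) and cytosolic ribosomal proteins (50 of 85) reach furthest to the right, and S phase and G2/M genes lie mostly on the left.

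Keratins, desmosome and cornified envelope genes fell in HCC-70 (13 of 26 fell and 1 rose) and showed 3 rises and 1 fall in SW620, with 10 higher and 0 lower responses in SW620. With the replicate block 8 rose in SW620 and 4 in HCC-70, and 2 had a lower response. KRT8, a keratin of simple epithelia, was abundant in both lines, at 3105, 3017 and 3221 CPM in SW620 controls, 3245, 3510.4 and 3319 after Ocoxin, 805, 875 and 839 in HCC-70 controls and 571, 595 and 552 after Ocoxin. It fell in HCC-70 alone of the 2 lines (-0.55 ± 0.041; 0.11 ± 0.041 in SW620, adjusted p = 0.19 and 0.0191 with the replicate block), and the difference was 0.66 ± 0.058 (adjusted p = 1.49e-07). The basal keratins KRT6B and KRT17 fell in HCC-70 as well (-0.56 ± 0.11 and -0.68 ± 0.12). In SW620 they were at 1.31, 1.10 and 1.26 CPM (KRT6B) and 3.38, 4.98 and 3.86 CPM (KRT17) in controls, and their values of 1.14 and 0.57 did not pass (adjusted p = 0.0966 and 0.268), whereas both did with the replicate block (6.29e-07 and 0.000316) and with DESeq2 (1.68e-05 and 0.0424). ERK output genes had 0 rises and 1 fall in SW620 and 1 rise and 5 falls in HCC-70 among 17, and 3 higher and 2 lower responses, against 3 rises in SW620 and 6 higher responses with the block. Shares over all genes tested were 1.45% up and 0.972% down in SW620, and 6.27% up and 9.29% down in HCC-70. For the difference they were 6.28% higher and 4.18% lower (11.2% and 9.2% with the block). The 1 rise in HCC-70 of the ERK list lies near its share, and that of the keratin list below it. AREG, an EGF receptor ligand outside that list, had 0.68 in SW620 and -0.62 in HCC-70 (difference 1.30 ± 0.28, adjusted p = 0.00415). DUSP5, an ERK phosphatase, fell in HCC-70 (-0.28 ± 0.086) and had 0.39 ± 0.11 in SW620 (adjusted p = 0.0609, and 0.00649 with the block). Of 15 Wnt targets, 2 had a higher response in SW620, CD44 and APCDD1 (0.42 ± 0.065 and 0.30 ± 0.084), the second being lost in 5 of 12 fits without 1 library, whereas with the block 4 had a lower response, 3 fell in SW620, and 3 rose and 3 fell in HCC-70. Of the 25 interferon-stimulated genes, 0 passed in the difference, against 11 higher and 1 lower with the replicate block (9 rising in SW620, 5 rising and 8 falling in HCC-70) and 3 and 0 with DESeq2, which called 13.1% of all genes (8.34% higher and 4.81% lower). With treated HCC-70 library 3 left out 7 were higher, with SW620 control 3 left out 2, and with treated SW620 library 1 or HCC-70 control 1 or 3 left out 1.

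Cytosolic ribosomal proteins and genes of oxidative phosphorylation differed in the same direction, and here the length of the gene has to be given beside the result. Their median exonic lengths were 2977 and 2468 bases, against 3821 over all genes tested. Mitochondrial ribosomal proteins had 2501 and proteasome subunits 3538. Among 85 cytosolic ribosomal proteins, 1 rose and 1 fell in SW620, 1 rose and 28 fell in HCC-70, and the response was higher in SW620 for 50 and lower for 1. With the replicate block 39 rose in SW620 and 56 fell in HCC-70, and 69 had a higher response. RPL27 was at 329.6, 322 and 356 CPM in SW620 controls and 346, 375 and 404 after Ocoxin, and at 193, 196 and 194 and 157, 160.4 and 164 in HCC-70, where the groups did not overlap. Its difference was 0.43 ± 0.071 and 0.35 with the length and GC trend removed. Of 80 genes of oxidative phosphorylation, 0 rose or fell in SW620, 0 rose and 40 fell in HCC-70, and 26 had a higher and 0 a lower response in SW620, against 45 and 1 with the block, in which 3 rose in SW620. COX7A2, a subunit of cytochrome oxidase, had 0.13 in SW620 and -0.56 in HCC-70. In the blocked fit the SW620 values of RPL27 and COX7A2 passed as well (adjusted p = 0.0017 and 0.0371). Of 37 proteasome subunits, 0 rose and 21 fell in HCC-70, and 8 had a higher response in SW620 (18 with the block). Of 78 mitochondrial ribosomal proteins, 1 rose and 22 fell in HCC-70 (38 fell with the block), and 7 had a higher response in SW620, a share near the 6.28% of all genes tested (20 with the block, against 11.2% of all genes).

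Exonic length moved with the difference over all genes. In the shortest of 10 length classes (median 514 bases) the median difference was 0.19, and in the longest (median 11533.5 bases) it was -0.12, the HCC-70 median running from -0.13 to 0.078 and that of SW620 from 0.039 to -0.040. Genes with a higher response in SW620 had a median exonic length of 3456 bases, those with a lower one 7055, and all tested genes 3821. With the trend removed, the shortest and longest classes had medians of 0.080 and -0.027, the difference passed for 28 ribosomal proteins in place of 50, for 18 oxidative phosphorylation genes in place of 26, for 6 proteasome subunits in place of 8 and for 7 mitochondrial ribosomal proteins as before. It passed for 11 NF-kB targets, 24 hypoxia and glycolysis genes and 4 metallothioneins, as before, and over all genes for 1193 higher (5.92%) and 1090 lower (5.41%), 11.3% in all, so that the share of higher responses went from 60.0% to 52.3%. The ribosomal count was 16 and 20 with SW620 control 1 or 2 left out, 19 and 27 with treated SW620 library 2 or 3, 30 and 28 with treated HCC-70 library 1 or 2, and 33, 17 and 28 with HCC-70 control 1, 2 or 3. The oxidative phosphorylation count was 12, 14 and 42 with SW620 control 1, 2 or 3 left out, 15 and 14 with treated SW620 library 2 or 3, 17 and 15 with treated HCC-70 library 1 or 2, and 17, 12 and 16 with HCC-70 control 1, 2 or 3. The proteasome count was 3, 4 and 16 with SW620 control 1, 2 or 3 left out, 4 and 5 with treated SW620 library 2 or 3, and 4 with HCC-70 control 1 or 2. That of mitochondrial ribosomal proteins was 3, 3 and 17 with SW620 control 1, 2 or 3 left out, 13, 4 and 4 with treated SW620 library 1, 2 or 3, 4 with treated HCC-70 library 2 and 3 with HCC-70 control 2.

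**Figure D5:**
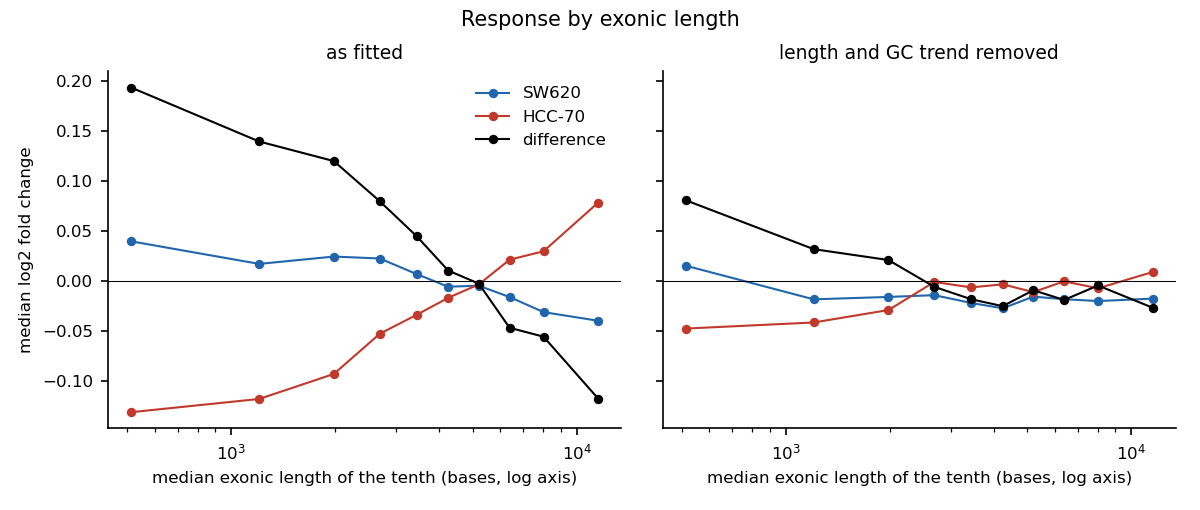
Median log2 fold change (vertical axis) of genes with at least 1 CPM in each line, in 10 classes of exonic length (horizontal axis, log scale), for SW620 (blue), HCC-70 (red) and their difference (black), as fitted (left) and with the length and GC trend removed (right). The difference runs from 0.19 in the shortest class to -0.12 in the longest on the left, and from 0.080 to -0.027 on the right.

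Chaperones and lipid enzymes showed smaller contrasts. Over all genes tested, 6.28% had a higher and 4.18% a lower response in SW620 (11.2% and 9.2% with the block). The 2 lower sterol genes and the 1 higher snoRNA host gene given below lie near those shares. Of 24 endoplasmic reticulum genes, 0 rose and 1 fell in SW620 and 4 rose and 11 fell in HCC-70, with 4 higher and 3 lower responses in SW620, the 4 being 2 with SW620 control 1 or HCC-70 control 3 left out. With the block 4 fell in SW620, and 7 had a higher and 5 a lower response. MANF, a secreted survival factor of that compartment, went from 49.6, 50.5 and 53.4 to 35.9, 32.9 and 36.6 CPM in HCC-70 and from 79.5, 75.6 and 86.2 to 76.8, 84.3 and 84.0 in SW620 (difference 0.56 ± 0.087, adjusted p = 0.000209). The groups were apart in HCC-70 and overlapped in SW620. SEL1L, of protein disposal from the same compartment, rose in HCC-70 (0.28 ± 0.050; -0.079 ± 0.051 in SW620, difference -0.36 ± 0.072). Of 11 heat shock proteins, 8 fell in HCC-70 and 1 in SW620, with 4 higher and 0 lower responses (7 and 3 with the block, 4 and 2 with the trend removed), and HSPA8 was the clearest (-0.23 ± 0.037 in HCC-70, 0.082 ± 0.037 in SW620, difference 0.32 ± 0.052, adjusted p = 0.00045). HSPA1A and HSPA1B had 1 and 2 counts over the 12 libraries and were not tested. Among 34 genes of sterol and fatty acid synthesis, 1 rose and 3 fell in SW620, 0 rose and 11 fell in HCC-70, and 4 had a higher and 2 a lower response. With the block 17 fell in SW620, 3 rose and 17 fell in HCC-70, and 8 had a higher and 7 a lower response, while with the trend removed 4 were lower. TM7SF2, a sterol reductase, moved in opposite directions (0.30 in SW620, lost in 1 of 12 fits without 1 library, and -0.28 in HCC-70, difference 0.58 ± 0.088, adjusted p = 0.000168). Of 13 snoRNA host genes, SNHG29 had a higher and SNHG1 a lower response in SW620 (0.29 ± 0.075, lost in 5 of 12 fits without 1 library, and -0.31 ± 0.070), and of 7 aryl hydrocarbon receptor targets CYP1A1 alone passed in the difference. With the block 4 snoRNA host genes rose in SW620 in place of 1, and 2 genes of each of these lists had a lower response.

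For some responses no reliable difference could be measured because 1 line had few or no reads of the gene. Of the 2110 members, 152 had a mean under 1 CPM in at least 1 line. Of the 3007 genes called in HCC-70 at 1 CPM or more, 138 were under 0.1 CPM in SW620, and of 460 called in SW620 at that level 15 were under 0.1 CPM in HCC-70. CASP14 fell in HCC-70 to 24.01, 22.5 and 24.3 CPM (-3.38 ± 0.14, adjusted p = 1.72e-05) and SERPINB7, a serpin of squamous epithelium, from 2.15, 2.07 and 1.54 to 0.568, 0.736 and 0.275 (-1.86 ± 0.36), both with 0 counts in all SW620 libraries. CSF3, the granulocyte growth factor and another NF-kB target, rose in SW620 from 0.701, 0.605 and 0.468 to 1.95, 2.30 and 1.34 CPM (1.66 ± 0.35, adjusted p = 0.0159, lost in 3 of 12 fits without 1 library), with 0 counts in all HCC-70 libraries. ASB2, a ubiquitin ligase subunit, rose in SW620 from 1.71, 2.50 and 2.22 to 4.85, 6.599 and 3.81 CPM (1.24 ± 0.28, adjusted p = 0.017, lost in 3 of 12 such fits) with at most 0.112 CPM in HCC-70. The glucose transporter gene SLC2A3 fell in SW620 (-0.26 ± 0.056). In HCC-70 it had 6, 2 and 2 counts in controls and 0, 0 and 0 after Ocoxin, at which depth no fold can be given. SLC2A3 is still counted among the 24 differences and 28 HCC-70 falls of its list, as CCL20 is among the 11 NF-kB differences.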

How the data were processed

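Poly(A) RNA of 12 samples was sequenced with a stranded kit. Per the labels and the study's methods, the authors used fastp for trimming, STAR for alignment (build hg38) and picard for duplicate removal, and counted reads per gene with featureCounts 2.0.3, with no strand option, so that overlapping and antisense genes are uncertain. The values used are these deposited counts of 58051 genes, and 37 mitochondrial genes held 0 counts. CPM values were computed from the library totals of the genes kept by the filter, multiplied by the TMM factor of each library. Genes were filtered with filterByExpr, scaled by TMM and tested with edgeR 4.0.16 (R 4.3.3) by the robust quasi-likelihood F-test in a means model of 4 groups (8 residual degrees of freedom), with Benjamini-Hochberg adjustment over 20163 genes, and DESeq2 1.42.0 served as an alternative. Each cell line's log2 fold change and their difference are contrasts of that fit. Same-numbered control and treated libraries correlated in their deviations from the group means (0.311, 0.136 and 0.426 in SW620 and 0.219, 0.256 and 0.578 in HCC-70, over 10257 genes), while pairs of different number had -0.446 to 0.286 and -0.430 to 0.302. Control 2 deviated more with treated library 1 than with its own number in both lines (0.286 and 0.302), as HCC-70 control 1 did with treated library 2 (0.225). Since every same-numbered pair was above 0.1, a fit with the number as a block is given as well. The length and GC trend was removed with splines of 5 degrees of freedom. The scripts were tested on simulated data.

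The members and the 20 gene lists were chosen with earlier results of these data known, and a further list holds the 13 genes the study named. Named genes were those 13, the 5 largest differences in each direction among genes of opposite sign and among all members (at least 1 CPM in each line), the 3 in each direction that moved most alike, up to 3 members per list, and the 2 largest responses per line of genes under 0.1 CPM in the other. CA9, EGLN3, PGK1, LDHA, TNFAIP3, BIRC3, ICAM1, MT2A, KRT8, KRT17, IGFBP3, AREG, FOXM1, FANCD2, DNMT1 and PFAS were named after their values were seen, as were VEGFA, BHLHE40, MXI1, REPIN1 and EIF4A1 and the promoters of CXCL8, CXCL1 and CA9. With 3 samples against 3, no exact permutation test of a single gene can go below p = 0.1.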

Additional observations from a re-analysis of the deposited data

Results flagged for a closer look

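The results listed here are the ones in which the response to Ocoxin differed between SW620 and HCC-70 by the test of the difference itself: 2110 genes in all, with 110 called in both lines with opposite sign, and the named genes below. Each value is the log2 fold change in SW620 minus that in HCC-70, with 3 libraries in each group.

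Among NF-kB targets and secreted or adhesion genes, the difference was 3.29 for CXCL8, 2.63 for CXCL1, 2.19 for CCL20, 1.00 for TNFAIP3, 0.98 for BIRC3, 1.07 for ICAM1, 1.30 for AREG, 1.21 for IGFBP3, 1.85 for LCN2 and 1.51 for CTSS. CCL20 was near 0 counts in HCC-70, so that its fitted value depends on the prior count. Among hypoxia and glycolysis genes it was 2.36 for NDRG1, 2.33 for BNIP3, 2.24 for CA9, 1.34 for EGLN3, 0.77 for LDHA, 0.62 for PGK1, 2.91 for ANGPTL4 and 4.45 for SLC2A3. SLC2A3 had 0 counts in treated HCC-70, and its value is fitted and no measured fold. ANGPTL4 had 0, 4 and 7 counts in SW620 controls and 10, 5 and 4 after Ocoxin, where its response did not pass.

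Among genes of the cell cycle and DNA metabolism the difference was 1.71 for CDKN1A, 3.18 for TCF19, -0.58 for CCND1, -0.60 for ESPL1, -0.51 for RAD54L, -0.68 for MDC1, -0.68 for CAD, -0.64 for KIF18B, -0.52 for E2F8, -0.47 for BRIP1, -0.46 for GMNN, -0.41 for CKAP2L, -0.38 for TOP2A, -0.37 for CTCF, -0.40 for FOXM1, -0.55 for FANCD2, -0.45 for DNMT1 and -0.57 for PFAS. Metallothioneins had 1.72 for MT1F, 1.18 for MT1X, 0.73 for MT1E and 0.53 for MT2A. Genes of the stress responses had 0.60 for ADM2, 0.45 for CHAC1, 0.39 for SESN2, 1.24 for ATF3, 0.98 for DDIT4, 0.78 for NUPR1, -0.43 for SLC7A11, -0.37 for AKR1C2, -1.72 for ABCC2, -0.81 for CYP1A1 and 0.23 for SELENOW. ABCC2 had 2, 2 and 4 counts in HCC-70 controls and 12, 8 and 8 after Ocoxin, and its difference was not called in 5 of 26 alternatives (adjusted p = 0.179 at equal depth). ATF3 and NUPR1 passed in neither line alone. ATF3 had 42, 55 and 44 counts in SW620 controls and 57, 64 and 112 after Ocoxin. NUPR1 had 10, 18 and 18 and then 31, 22 and 16 there, and its difference was lost in 8 of 12 fits without 1 library.

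Keratins and genes of ERK and Wnt output had 1.73 for KRT6A, 1.71 for KRT6B, 0.66 for KRT8, 1.25 for KRT17, 0.67 for DUSP5, 0.58 for FOSL1, 0.42 for CD44 and 0.30 for APCDD1. KRT6A had a mean of only 0.387 CPM over the SW620 libraries. Chaperones and lipid enzymes had 0.56 for MANF, 0.37 for SEC61B, -0.36 for SEL1L, -1.77 for CLGN, 0.32 for HSPA8, 0.29 for DNAJA1, 0.27 for HSPB1, 0.58 for TM7SF2, -0.37 for ACACA and 0.34 for NSDHL. Genes of ribosomes, mitochondria, proteasomes and snoRNA hosts had -1.27 for RPL36A, 0.43 for RPL27, 0.40 for RPL34, 0.69 for COX7A2, 0.51 for UQCR11, 0.42 for NDUFB3, 0.52 for MRPS28, 0.50 for MRPS36, 0.48 for MRPS6, 0.52 for PSMB10, 0.36 for PSMA7, 0.33 for PSMB1, -0.31 for SNHG1 and 0.29 for SNHG29. The remaining named genes were 1.58 for SDCBP2, -0.65 for COBLL1, -1.57 for LHX4, -1.41 for GOLGA6L5P and -1.34 for ENSG00000272849.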

How the results depend on the processing

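Counts are given in the order difference, higher in SW620, lower in SW620, SW620, HCC-70, opposite sign, same sign, and as reported they were 2110, 1267, 843, 488, 3137, 110 and 61. With the replicate block, which pairs same-numbered libraries, they were 4111, 2255, 1856, 1732, 5279, 548 and 257, and with the block and the length and GC trend removed 4100, 2118, 1982, 2145, 5303, 567 and 409. At an adjusted p under 0.01 they were 901, 599, 302, 151, 1564, 25 and 18. Keeping only calls with an estimated change of at least 1.5-fold left 518, 377, 141, 118, 499, 8 and 10. At least 2-fold left 231, 170, 61, 47, 204, 2 and 4. With replicates 1 and 2 alone, chosen after seeing the data, the difference was called for 3214 genes, 1375 of them lower, with 1144 called in SW620, 368 of opposite and 108 of the same sign. DESeq2 called 800 in SW620, 184 of opposite and 95 of the same sign. The trend removed without the block gave 767 in SW620 and 109 of the same sign, and a block in HCC-70 only gave 180 and 99 of opposite and same sign. Leaving out 1 library gave 1218 to 2828, 735 to 1667, 471 to 1161, 173 to 657, 1808 to 3459, 37 to 199 and 26 to 65.

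The block ended no call of a named gene. Beside the calls printed with the results, it added those of ATF3, NUPR1, AKR1C2, ACACA, KRT6A and APCDD1 in SW620 and of CHAC1, KIF20A, NQO1, ATF3, ACACA, CD44, APCDD1 and MRPS6 in HCC-70, and it changed no other call of a named gene. Signs turned only for differences that had not passed. For SLC39A10 these were -0.0035 without TMM, -0.0048 without a filter, -0.037 at equal depth, -0.049 with replicates 1 and 2, and -0.028, -0.011, -0.022 and -0.046 without SW620 Ocoxin 3, SW620 control 2, HCC-70 Ocoxin 1 and HCC-70 control 3. For TRIB3 they were -0.091 and -0.087 with the trend removed, without and with the block, and -0.035, -0.00072, -0.0035, -0.0091 and -0.019 without SW620 Ocoxin 2, SW620 Ocoxin 3, SW620 control 2, HCC-70 Ocoxin 1 and HCC-70 Ocoxin 2. For TXNRD1 they were 0.025 and 0.026 with the trend removed, 0.032 without HCC-70 Ocoxin 3 and 0.00039 with replicates 1 and 2. For KREMEN1 they were -0.059 at equal depth and -0.0026, -0.050, -0.026 and -0.0071 without SW620 control 2, HCC-70 Ocoxin 3, HCC-70 control 1 and HCC-70 control 2. NCAPG had 0.014 and 0.029 without SW620 Ocoxin 1 and HCC-70 Ocoxin 2, and ASB2, near 0 counts in HCC-70, -1.34 without HCC-70 control 2. Over all fits without 1 library, SLC39A10 reached up to 0.052, TRIB3 0.097, KREMEN1 0.098 and ASB2 4.68, and TXNRD1 down to -0.051 and NCAPG -0.074. The cause was not tested.

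Removing the trend ended the difference call of CHAC1, SESN2, AKR1C2, HSPB1, FOSL1, UQCR11 and MRPS28, the HCC-70 calls of BRIP1, LCN2 and MRPS36, and the SW620 calls of TRIB3 and COBLL1. Depth limits genes near 0 counts in 1 line.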
